A study of Mus musculus with 28 samples.

Results

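Genes of vesicle traffic, lysosomes and autophagy were followed in the livers of fasted, high-fat fed and control mice. The group was chosen by symbol: the Rab and Arf GTPases, sorting nexins, Vps and Sec proteins, syntaxins with their partners, VAMPs, COPI coat subunits, adaptor complex subunits, cathepsins, lysosomal membrane proteins, subunits of the vacuolar proton pump, hexosaminidases, Atg genes and the GABARAP family. Of the 4799 genes named on the array 94 carried such a symbol. They were 16 Rab, 14 adaptor (Ap), 12 cathepsin (Cts), 9 syntaxin (Stx), 7 Sec, 6 Arf, 6 Vamp, 6 proton pump (Atp6), 5 COPI (Cop), 5 Vps, 3 Snx, 2 Lamp, 2 GABARAP and 1 hexosaminidase genes, and 0 Atg genes. Ctsl, the gene of cathepsin L, was left out of the group by its rule. A symbol does not fix a function: Vps72 is known as a chromatin protein, Sec61 genes encode the channel by which proteins enter the endoplasmic reticulum, and Ctsj and Ctsr are placental cathepsins.

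The 15 C57BL/6 mice, an inbred strain, were 12 to 16 weeks old, and each diet had 5 mice. Fasted mice had chow for 2 weeks and then no food for 16 hours, high-fat mice had a fat-rich diet for 2 weeks, and control mice had chow for 2 weeks. Total liver RNA was amplified and compared in pairs of mice on 28 two-colour arrays, 2 arrays with exchanged dyes for each of 14 pairs. A fasted mouse was set against a control mouse in 4 pairs, a high-fat mouse against a control mouse in 5, and a fasted mouse against a high-fat mouse in 5. No source used here gives the sex.

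Values are log2 ratios of a swap, the mean of its 2 arrays, written as the group named first over the other. Neither the log base nor the direction of the ratio is stated in the sources used here. Base 2 was assumed. An array's value was read as the liver named later in its title over the other, which is likely but not certain; turning it would exchange higher and lower everywhere. A pair is written by its mice, so that 11/4 is fasted mouse 11 over control mouse 4. Values of pairs are given in the order 11/4, 15/2, 13/5 and 14/3 for fasted over control, 8/4, 10/3, 7/5, 9/2 and 6/1 for high-fat over control, and 13/8, 12/6, 11/9, 14/7 and 15/10 for fasted over high-fat. Fitted values are log2 ratios ± standard error from limma over all 14 pairs. Adjusted p is by Benjamini-Hochberg over 11457 features, and a gene rose or fell only where it was under 0.05. Array medians ran from -0.23 to 0.35 and standard deviations from 0.293 to 1.26, the widest on the second array of fasted 15 and control 2. The deposited values are ratios without brightness, so how far a spot stood above background is not known, and the number of arrays limits the precision. In whole liver, fewer cells of a type and less RNA per cell cannot be told apart.

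Secretory proteins enter the endoplasmic reticulum through the Sec61 channel, and COPII and COPI coats then carry them to the Golgi and return escaped proteins, with Arf and Rab GTPases recruiting coats and tethers. Clathrin adaptors sort cargo between the Golgi, endosomes and the plasma membrane, SNARE proteins such as syntaxins and VAMPs fuse the membranes, and lysosomes, acidified by the vacuolar proton pump, digest what arrives. Autophagosomes, which need the lipid-anchored Atg8 family that includes the GABARAP proteins, deliver the cell's own material to lysosomes. Hepatocytes secrete most plasma proteins, and their autophagy is known to increase when food is withdrawn.

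The first comparison asked how these genes differed after the fast. In fasted livers 1 gene rose and 7 fell relative to controls, and 86 did not pass. Arf4 rose, and Copz1, Sec61g, Gabarapl1, Arf5, Lamp1, Ap4m1 and Ctss fell. That is 8.51% of the group, beside 7.93% of all 11457 features (909 called). By direction it is 1.06% higher beside 3.35% of all features, and 7.45% lower beside 4.58%. The share called was thus near the background in this comparison. The median over the 94 genes was -0.05, beside 0.01 over all features, and 71 of 94 lay within 0.2 of 0. At an unadjusted p under 0.05 there were 28, or 29.8% beside 19.7% of all features.

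High-fat livers differed from controls in 0 of the 94 genes, beside 0.349% of all features (40 called). For higher and lower alone the background was 0.0262% and 0.323%. At an unadjusted p under 0.05 in limma there were 7, of which 3 were higher and 4 lower, or 7.45% beside 5.79% of all features. Between fasted and high-fat livers 2 genes rose, Vamp3 and Ap2m1, and 4 fell, Copz1, Arf5, Gabarapl1 and Sec61g. This is 6.38% of the group beside 5.46% of all features (625 called), with 2.13% higher beside 2.7% and 4.26% lower beside 2.76%. In all 10 genes passed in at least 1 comparison. Of these, 4 passed in fasted against control and in fasted against high-fat livers, which share the fasted mice, 4 in fasted against control alone and 2 in fasted against high-fat alone. The same counts were not made over all features, so whether this overlap is particular to the group is not known.

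**Figure D1:**
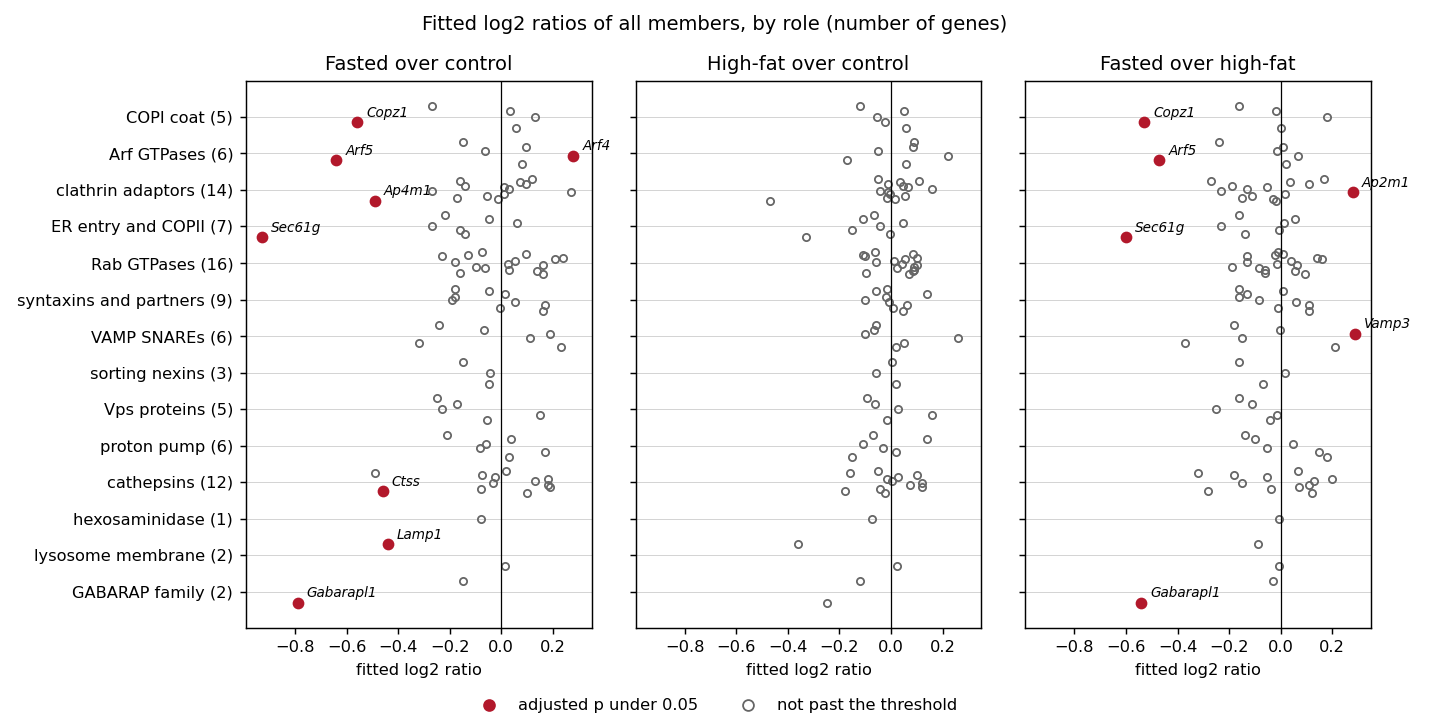
Fitted log2 ratios of all 94 genes by role (y axis, with the number of genes), for fasted over control, high-fat over control and fasted over high-fat livers. Filled points passed adjusted p under 0.05: 8, 0 and 6 genes; the others are open.

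Among the genes of entry into the secretory pathway, Sec61g, a small subunit of the Sec61 channel, had the largest fitted decrease of the group in fasted livers. Its ratios were -1.04, -1.65, -1.20 and -0.12 in fasted over control pairs, -0.51, 0.24, -0.13, -0.69 and -0.31 in high-fat over control pairs, and -0.77, -0.27, -0.82, -0.21 and -0.65 in fasted over high-fat pairs. All 9 pairs with a fasted mouse were negative, with 14/3 nearest to 0, while the high-fat over control pairs lay on both sides of 0. The fit gave -0.93 ± 0.15 in fasted over control livers, 1.9-fold lower (adjusted p = 0.000771), and -0.60 ± 0.15 in fasted over high-fat livers (adjusted p = 0.0205). High-fat over control was -0.33 ± 0.15 (adjusted p = 0.786). The fasted over high-fat call was lost in 7 of 15 omissions of a mouse (control 4 and 5, fasted 11 and 13, high-fat 8, 9 and 10; adjusted p up to 0.123). The other 6 Sec genes did not pass in any comparison. Of the 7, 6 were below 0 in fasted over control livers, with a median of -0.16. Of all 11457 features 5504 were below 0 there, with a median of 0.01.

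Copz1 encodes the zeta subunit of COPI, the coat of Golgi vesicles. It read -0.68, -0.59, -0.73 and -0.53 in fasted over control pairs, -0.11, 0.01, 0.08, 0.14 and 0.04 in high-fat over control pairs, and -0.66, -0.31, -0.47, -0.48 and -0.47 in fasted over high-fat pairs. Every pair with a fasted mouse lay below every pair without one, and the spread within a kind of pair was small. Copz1 fell by 0.56 ± 0.07 on the log2 scale, 1.47-fold, in fasted relative to control livers (adjusted p = 7.63e-05) and by 0.53 ± 0.07 relative to high-fat livers (adjusted p = 7.98e-05). High-fat over control was -0.02 ± 0.07 (adjusted p = 0.997), with a 95% interval of -0.17 to 0.12. Both calls held in all 15 omissions of a mouse. The other 4 COPI genes did not pass. Their fasted over control ratios included -0.27 for the epsilon subunit Cope (adjusted p = 0.163) and 0.06 for the paralog Copz2 (adjusted p = 0.786).

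Of the 6 Arf GTPases, which recruit coats to membranes, Arf5 fell and Arf4 rose in fasted over control livers. Arf5 had -0.75, -0.56, -1.01 and -0.57 in fasted over control pairs, -0.43, -0.15, -0.13, -0.05 and 0.12 in high-fat over control pairs, and -0.78, -0.04, -0.87, -0.18 and -0.25 in fasted over high-fat pairs. The first set did not overlap the second, and in the third the pairs of fasted 13 and fasted 11 were lowest. The fit was -0.64 ± 0.11 in fasted over control livers, 1.56-fold lower (adjusted p = 0.00108), and -0.47 ± 0.10 in fasted over high-fat livers (adjusted p = 0.0117). The fasted over high-fat call was lost without fasted 11, fasted 13 or high-fat 9 (adjusted p up to 0.0892).

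Arf4 went the other way, with 0.21, 0.12, 0.19 and 0.48 in fasted over control pairs, -0.003, 0.42, 0.26, 0.24 and 0.30 in high-fat over control pairs, and 0.17, 0.06, 0.01, 0.02 and 0.19 in fasted over high-fat pairs. Fasted and high-fat pairs against controls overlapped, and all 5 direct pairs between the diets were above 0 but small. The fit was 0.28 ± 0.07 for fasted over control (adjusted p = 0.0197), 0.22 ± 0.07 for high-fat over control (adjusted p = 0.375) and 0.07 ± 0.07 for fasted over high-fat (adjusted p = 0.732). The call rests on unequal arrays. In the 4 fasted over control swaps the first arrays read 0.78, 0.40, 0.60 and 0.90, and the second arrays -0.36, -0.16, -0.22 and 0.06. The call was also lost in 7 of 15 omissions (control 3 and 5, fasted 11, 13 and 14, high-fat 7 and 10; adjusted p up to 0.0986). Arf1, Arf2, Arf3 and Arf6 lay between -0.15 and 0.09 in fasted over control livers and did not pass.

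**Figure D2:**
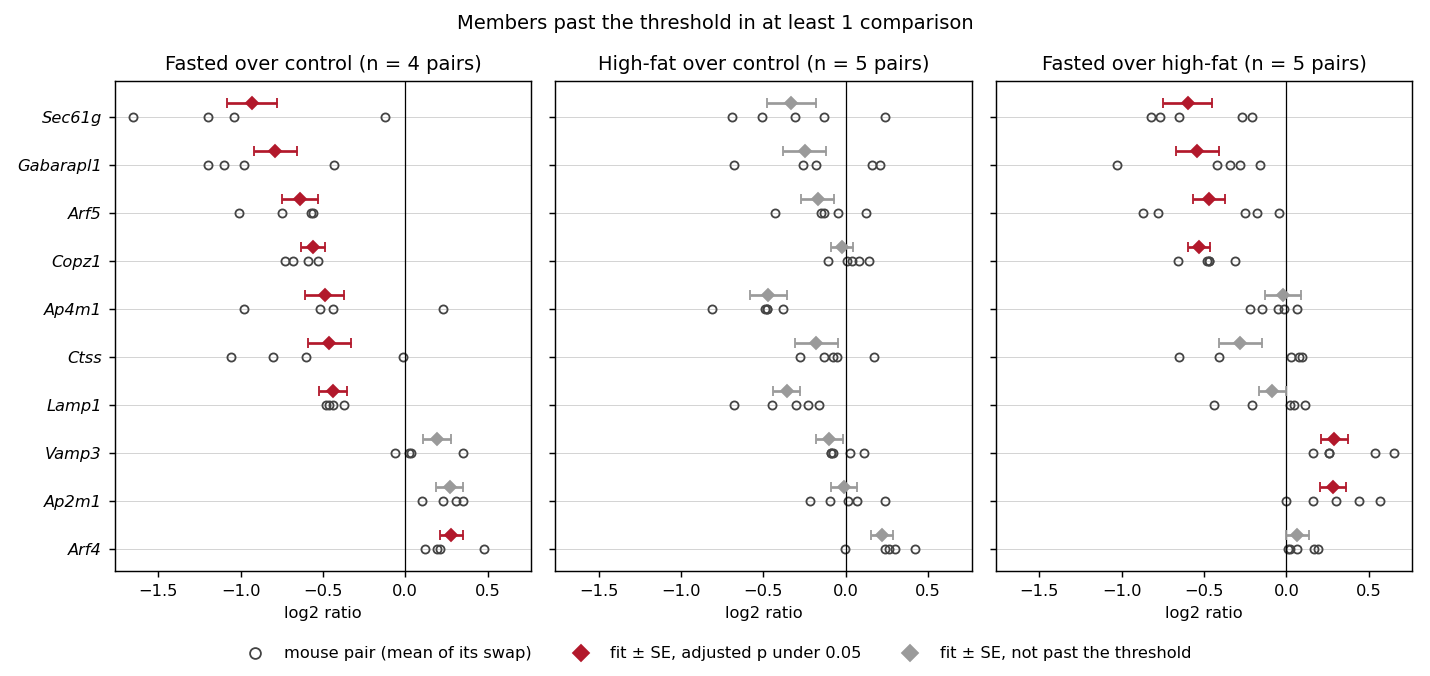
Log2 ratios of the 10 genes that passed in at least 1 comparison: open circles are mouse pairs (4, 5 and 5), diamonds the fitted ratios ± standard error, drawn just above them, red where adjusted p was under 0.05. Sec61g, Gabarapl1, Arf5 and Copz1 were below 0 in all 9 pairs with a fasted mouse, and Lamp1 was below 0 in all 9 pairs with a control mouse.

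Adaptor complexes have 14 subunit genes here, of which 1 fell in fasted over control livers and 1 rose in fasted over high-fat livers. Each is 7.14% called, beside 7.93% and 5.46% of all features. Ap4m1, the medium subunit of the AP-4 complex of the Golgi, had -0.44, 0.23, -0.52 and -0.98 in fasted over control pairs, -0.48, -0.48, -0.38, -0.81 and -0.49 in high-fat over control pairs, and 0.07, -0.01, -0.05, -0.15 and -0.22 in fasted over high-fat pairs. Pair 15/2 alone was above 0 against controls. Its fit was -0.49 ± 0.12 in fasted over control livers (adjusted p = 0.0117) and -0.47 ± 0.11 in high-fat over control livers (adjusted p = 0.0927), 2 comparisons that share the control mice. Fasted over high-fat was -0.02 ± 0.11 (adjusted p = 0.968), with a 95% interval of -0.25 to 0.21. The fasted over control call was lost without control 3, control 5, fasted 11 or fasted 14 (adjusted p up to 0.0699), and without control 2 or fasted 15 the high-fat over control value passed (adjusted p = 0.00962 and 0.00221). The swap of fasted 15 and control 2 includes the array with the widest spread; without that swap high-fat over control was -0.54 (adjusted p = 0.00216).

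Ap2m1, the medium subunit of the AP-2 complex of clathrin-coated pits, had 0.31, 0.10, 0.23 and 0.35 in fasted over control pairs, -0.22, -0.10, 0.01, 0.24 and 0.07 in high-fat over control pairs, and 0.44, 0.30, 0.16, -0.00013 and 0.57 in fasted over high-fat pairs. It rose in fasted over high-fat livers (0.28 ± 0.08, adjusted p = 0.047) and missed the threshold in fasted over control livers (0.27 ± 0.08, adjusted p = 0.0592). The pairs were widely spread, and the call was lost in 11 of 15 omissions (adjusted p up to 0.233). Its arrays had the same sign in 3 of 5 fasted over high-fat swaps and in 0 of 4 fasted over control swaps. The second arrays alone gave 0.055 in fasted over high-fat livers (adjusted p = 0.984). The other 12 adaptor genes did not pass, and in fasted over control livers they lay between -0.27 and 0.12.

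Among the genes of tethering and fusion, the Rab GTPases and syntaxins mostly lay near 0. None of 16 Rab GTPases passed in any comparison, and in fasted over control livers they lay between -0.23 and 0.24, where 1 of 16 (6.25%) was under an unadjusted p of 0.05, beside 19.7% of all features. The largest was Rab1a, of transport from the endoplasmic reticulum to the Golgi, with 0.29, -0.44, 0.29 and 0.53 in fasted over control pairs and a fit of 0.24 ± 0.12 (adjusted p = 0.258). Pair 15/2 opposed the other 3 pairs, and Rab1a passed without control 2 (0.39, adjusted p = 0.0194) or fasted 15 (0.34, adjusted p = 0.037). Its arrays had the same sign in only 1 of 4 fasted over control swaps, and the first arrays alone gave 0.93. Rab1a had a dye effect of 0.46 ± 0.09 (limma, adjusted p = 0.00148). None of 9 syntaxins and partners passed either, and all 9 were within 0.2 of 0 in fasted over control livers. Stx7, a syntaxin of late endosomes, was at -0.19 ± 0.09 there (adjusted p = 0.289).

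Among 6 VAMPs, the SNAREs of vesicles, Vamp3 of recycling endosomes rose in fasted over high-fat livers. Its ratios were 0.03, 0.03, 0.35 and -0.06 in fasted over control pairs, -0.09, -0.08, -0.09, 0.11 and 0.03 in high-fat over control pairs, and 0.65, 0.16, 0.26, 0.54 and 0.26 in fasted over high-fat pairs. The 5 pairs of the last kind were all above 0, while those of the others lay on both sides. The fit was 0.29 ± 0.08 (adjusted p = 0.0455), and the call was lost in 13 of 15 omissions (adjusted p up to 0.202). The 2 spots of Vamp3 did not move together over the 14 pairs (r = 0.00045, beside a median of 0.658 over the 94 genes). Of the 6 VAMPs 4 (66.7%) were under an unadjusted p of 0.05 in fasted over control livers, 2 higher and 2 lower, beside 19.7% of all features. In fasted over high-fat livers there were again 4, 2 higher and 2 lower, beside 16.8%. Within 0.2 of 0 lay 3 of the 6 in each of these comparisons. Vamp5 did not pass, at -0.32 ± 0.11 over control (adjusted p = 0.0998) and -0.37 ± 0.11 over high-fat (adjusted p = 0.0546). Vamp4 was at 0.26 ± 0.07 in high-fat over control livers (adjusted p = 0.16) with all 5 pairs above 0. In 0 of these 5 swaps did its arrays have the same sign, and its dye effect was -0.42 ± 0.06 (adjusted p = 4.57e-05).

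Endosomal sorting genes did not pass in any comparison. The 3 sorting nexins lay between -0.15 and -0.04 in fasted over control livers, with Snx1, a retromer-associated nexin, at -0.15 ± 0.08 (adjusted p = 0.322). Of 5 Vps genes 4 were under an unadjusted p of 0.05 in fasted over control livers, 1 higher and 3 lower, beside 19.7% of all features under that p. Vps26c, a subunit of the retriever complex that recycles cargo from endosomes, read -0.33, -0.09, -0.23 and -0.48, and its fit was -0.25 ± 0.08 (adjusted p = 0.075). All 4 pairs were below 0. Vps4b, an ATPase that disassembles ESCRT complexes, was at 0.15 ± 0.07 in fasted over control (adjusted p = 0.251) and 0.16 ± 0.07 in high-fat over control livers (adjusted p = 0.709), and its 2 spots had r = -0.169 over the pairs.

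Lamp1, the abundant glycoprotein of the lysosomal membrane, fell in fasted over control livers. It read -0.44, -0.46, -0.48 and -0.37 in fasted over control pairs, -0.30, -0.45, -0.23, -0.68 and -0.16 in high-fat over control pairs, and -0.44, 0.05, -0.21, 0.11 and 0.02 in fasted over high-fat pairs. All 9 pairs with a control mouse were below 0, and the pairs between the diets lay on both sides. The fit was -0.44 ± 0.08 in fasted over control livers, 1.36-fold lower (adjusted p = 0.00268), and -0.36 ± 0.08 in high-fat over control livers (adjusted p = 0.0798). Fasted over high-fat was -0.09 ± 0.08 (adjusted p = 0.698), with a 95% interval of -0.26 to 0.09. The fasted over control call held in all 15 omissions of a mouse. The 2 comparisons with controls share the control mice. Lamp2, the other gene of the pair and the receptor of chaperone-mediated autophagy, was at 0.02 ± 0.12 in fasted over control livers (adjusted p = 0.97), with pairs from -0.31 to 0.58.

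Lysosomal and autophagy genes are known to be regulated by TFEB-family factors, which read an E-box with the core CACGTG, and Gabarapl1 by forkhead factors. Promoters from RefSeq (GRCm38.p6, 250 bases before to 50 after the start) were found for 79 of the 94 genes and 9 of the 10 that passed. The 3 with the core CACGTG among those 9 are shown to place it, together with Gabarapl1, which has none. Capitals mark the core, which reads the same on both strands. Lamp1 (chr8:13158911-13159210, plus strand) holds 4 cores, starting 61, 45, 28 and 15 bases before the start. Arf5 (chr6:28423354-28423653, plus strand) holds 1 at 69 bases, Ap2m1 (chr16:20535230-20535529, plus strand) 1 at 174 bases, and Gabarapl1 (chr6:129532942-129533241, plus strand) 0.
Lamp1: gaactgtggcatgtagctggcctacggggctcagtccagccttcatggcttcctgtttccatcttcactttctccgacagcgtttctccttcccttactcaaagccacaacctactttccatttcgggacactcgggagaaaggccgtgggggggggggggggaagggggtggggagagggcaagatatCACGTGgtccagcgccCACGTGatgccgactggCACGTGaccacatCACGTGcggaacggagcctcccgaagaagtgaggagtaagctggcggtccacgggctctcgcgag
Arf5: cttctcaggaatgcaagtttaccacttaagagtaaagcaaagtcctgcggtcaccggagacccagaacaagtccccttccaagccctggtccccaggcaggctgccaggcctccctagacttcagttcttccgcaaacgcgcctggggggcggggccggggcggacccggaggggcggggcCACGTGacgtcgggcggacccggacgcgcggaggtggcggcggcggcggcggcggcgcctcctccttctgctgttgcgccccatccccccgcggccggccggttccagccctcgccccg
Ap2m1: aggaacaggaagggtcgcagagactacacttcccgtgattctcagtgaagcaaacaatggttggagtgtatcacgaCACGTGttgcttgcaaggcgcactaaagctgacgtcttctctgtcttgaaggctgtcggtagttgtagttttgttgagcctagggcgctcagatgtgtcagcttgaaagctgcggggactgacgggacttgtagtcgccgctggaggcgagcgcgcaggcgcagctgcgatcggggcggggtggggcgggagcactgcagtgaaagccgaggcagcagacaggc
Gabarapl1: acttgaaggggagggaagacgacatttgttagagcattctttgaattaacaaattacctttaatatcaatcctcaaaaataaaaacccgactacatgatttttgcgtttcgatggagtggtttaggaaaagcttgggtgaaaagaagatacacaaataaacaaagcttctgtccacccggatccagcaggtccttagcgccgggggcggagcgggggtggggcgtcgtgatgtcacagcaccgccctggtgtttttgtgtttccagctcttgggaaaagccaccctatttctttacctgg

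The core was found in 12 of 91 promoters of the 94 genes (13.2%), beside 7.15% of all 32817 promoters of the table. The other promoters with it belong to Atp6v0d1, Atp6v1a, Ctsa, Ctsd, Ctsf, Rab23, Rab24, Stxbp2 and Vamp4, none of which passed in any comparison. The forkhead core GTAAACA, searched on both strands, was in 2 of the 91 promoters (2.2%), those of Stx2 and Vps45, beside 3.65% of all promoters, and in 0 of the 9 that passed. A match is a description of these letters, and no match says only that these exact letters are not in this window. Other spellings of the forkhead core were not searched, in Gabarapl1 or elsewhere. Of the 3 genes with the core, Lamp1 and Arf5 fell in fasted over control livers, and in fasted over high-fat livers Arf5 fell and Ap2m1 rose.

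Of 12 cathepsins, the lysosomal proteases, 1 fell in fasted over control livers (8.33% beside 7.93% of all features) and 0 passed in the other comparisons. Ctss, a cathepsin of antigen-presenting cells, read -0.60, -1.06, -0.80 and -0.01 in fasted over control pairs, -0.28, -0.13, -0.05, -0.08 and 0.17 in high-fat over control pairs, and -0.41, 0.09, -0.65, 0.08 and 0.03 in fasted over high-fat pairs. Pair 14/3 stood near 0 and the other 3 fasted over control pairs were at or below -0.60. The fit was -0.46 ± 0.13 in fasted over control livers (adjusted p = 0.038), and the call was lost in 8 of 15 omissions (control 2, 4 and 5, fasted 11, 13 and 15, high-fat 8 and 9; adjusted p up to 0.181). Ctsc, which activates granule proteases of immune cells, read -0.87, -0.59, -0.71 and -0.06 in fasted over control pairs and was at -0.49 ± 0.16 (adjusted p = 0.0794). It passed without fasted 12 (-0.57, adjusted p = 0.0184) or high-fat 6 (-0.57, adjusted p = 0.029). The 10 other cathepsins lay between -0.08 and 0.19 in fasted over control livers.

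Markers of Kupffer cells, the macrophages of the liver, were set beside these genes. Of 16 listed markers 8 were on the array, and 5 fell in fasted over control livers: Cd5l (-0.68 ± 0.13), C1qc (-0.57 ± 0.11), Clec4f (-0.49 ± 0.11), Aif1 (-0.46 ± 0.12) and C1qa (-0.38 ± 0.11). Leaving out single mice ended the Aif1 call 7 times, the C1qa call 9 times and the Clec4f call 1 time in 15. The median of the 8 was -0.57, -0.30, -0.64 and -0.27 in fasted over control pairs, -0.17, -0.13, -0.12, -0.36 and -0.04 in high-fat over control pairs, and -0.33, 0.05, -0.58, 0.01 and -0.0024 in fasted over high-fat pairs. As for Ctss and Ctsc, the lowest fasted over high-fat pairs were 13/8 and 11/9. Other pairs differed: in 15/2 Ctss was at its lowest, -1.06, beside a marker median of -0.30. In 14/3 Ctss and Ctsc were at -0.01 and -0.06 beside a median of -0.27, with all 8 markers below 0. Single markers ran from -1.18 to 0.73 in fasted over control pairs, from -0.79 to 0.58 in high-fat over control pairs and from -0.81 to 0.42 in fasted over high-fat pairs. In the fits 0 of the 8 passed in high-fat over control (median -0.21) and in fasted over high-fat livers (median -0.22). Below 0 were 8 and 7 of them. Under an unadjusted p of 0.05 there were 4 (50%) in each, all lower, beside 5.79% and 16.8% of all features. These are ratios, so which markers were at background is unknown. The part of macrophages in the values of Ctss, Ctsc and Lamp1 was not tested. Of the other lists in fasted over control livers, 1 of 8 neutrophil markers fell (Camp, -2.14 ± 0.20), 2 of 7 endothelial markers fell, 0 of 6 lymphocyte markers passed and 1 of 2 stellate cell markers rose. Of 4 hepatocyte markers 1 rose and 1 fell.

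**Figure D3:**
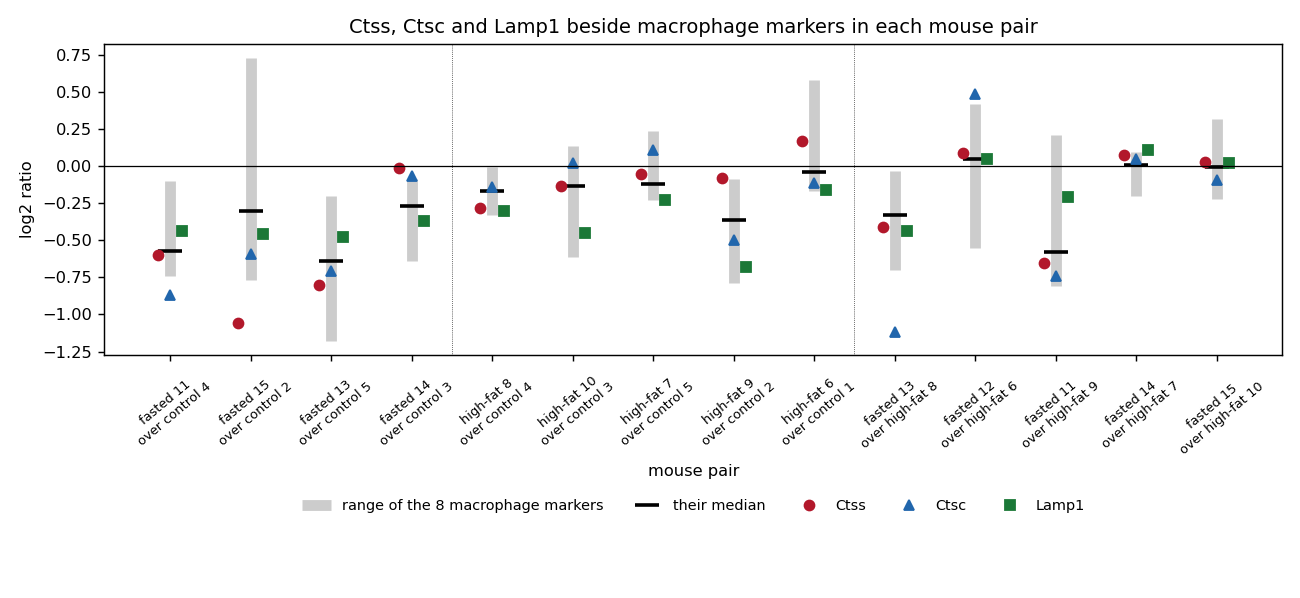
Log2 ratios (y axis) of Ctss, Ctsc and Lamp1 in each of the 14 mouse pairs (x axis), with the range (grey bars) and median (black lines) of the 8 Kupffer cell markers on the array. In pair 14/3 Ctss and Ctsc were at -0.01 and -0.06, and Lamp1 at -0.37 beside a marker median of -0.27.

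The proton pump genes and the hexosaminidase gene of the group did not pass in any comparison. The 6 proton pump genes lay between -0.21 and 0.17 in fasted over control livers, the lowest being Atp6ap1, an accessory subunit, which read -0.34, -0.23, -0.44 and 0.09 (fit -0.21 ± 0.08, adjusted p = 0.117). Pair 14/3 opposed the other 3. Atp6ap1 passed without fasted 14 (-0.28, adjusted p = 0.0455). Hexa, the alpha subunit of beta-hexosaminidase, was at -0.08 ± 0.08 (adjusted p = 0.655), with a 95% interval of -0.24 to 0.08.

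Gabarapl1, an Atg8-family gene of autophagosome formation, had the second largest fitted decrease of the group. It read -1.20, -0.43, -0.98 and -1.10 in fasted over control pairs, -0.68, -0.18, -0.26, 0.21 and 0.16 in high-fat over control pairs, and -0.16, -0.28, -1.03, -0.34 and -0.42 in fasted over high-fat pairs. All 9 pairs with a fasted mouse were negative, and pair 11/9 was the lowest of its kind. The fit was -0.79 ± 0.13 in fasted over control livers, 1.73-fold lower (adjusted p = 0.000854), and -0.54 ± 0.13 in fasted over high-fat livers (adjusted p = 0.0143). High-fat over control was -0.25 ± 0.13 (adjusted p = 0.894). The fasted over control call held in all 15 omissions, and the fasted over high-fat call was lost without fasted 11, high-fat 9 or high-fat 10 (adjusted p up to 0.11). Its paralog Gabarap read -0.11, -0.15, -0.19 and -0.18 in fasted over control pairs, with a fit of -0.15 ± 0.07 (adjusted p = 0.272). Probe sequences were not used here, so binding of close paralogs, such as the GABARAP or Arf genes, to each other's spots was not tested.

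Other genes of the same pathways were taken from lists chosen by known function. Of 50 further lysosomal genes 31 were on the array, and in fasted over control livers 1 rose and 7 fell, with a median of -0.09 beside 0.01 over all features. This is 25.8% called beside 7.93% of all features, and 22.6% lower beside 4.58%. The Kupffer cell markers moved in the same comparison, with 5 of 8 lower and a median of -0.42, and their part in the lysosomal values was not tested. Among those that fell, Idua (-0.50 ± 0.08, adjusted p = 0.000715) and Hyal1 (-0.62 ± 0.11, adjusted p = 0.00124) break down glycosaminoglycans. Gm2a (-0.46 ± 0.09, adjusted p = 0.00222) encodes an activator of ganglioside breakdown, and Acp5 (-0.54 ± 0.09, adjusted p = 0.000904) an acid phosphatase of macrophages and osteoclasts. Npc1, which exports cholesterol from lysosomes, rose (0.37 ± 0.08, adjusted p = 0.00476). Each of these 5 had the direction of its fit in 4 of 4 direct pairs and held in all 15 omissions of a mouse. All 5 calls were lost with direct pairs alone and with a variance share of 0.9 for shared mice. Those of Idua and Npc1 were also lost with second arrays alone. Over the alternatives other than omissions of a mouse, Npc1 ran from 0.087 to 0.65. Of the other calls of this list, that of Naglu (-0.32 ± 0.095, adjusted p = 0.0487) was lost in 9 of 15 omissions (adjusted p up to 0.221). The remaining calls were not followed in omissions.

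In fasted over high-fat livers 4 of the 31 fell and 1 rose, 16.1% beside 5.46% of all features. Of the 8 Kupffer cell markers 0 passed, but 7 were below 0 (median -0.22). Under an unadjusted p of 0.05 there were 4 markers, or 50% beside 16.8% of all features. Their part in the lysosomal values was not tested here either. Idua (-0.47 ± 0.08, adjusted p = 0.00113), Hyal1 (-0.51 ± 0.10, adjusted p = 0.00566), Naglu, an enzyme of heparan sulfate breakdown (-0.42 ± 0.09, adjusted p = 0.00898), and the sialidase Neu1 (-0.29 ± 0.07, adjusted p = 0.0257) fell. Scarb2, the lysosomal membrane protein that carries glucocerebrosidase, rose (0.31 ± 0.06, adjusted p = 0.00484), in 5 of 5 direct pairs. The Naglu call was lost without fasted 11, fasted 13, high-fat 8 or high-fat 9 (adjusted p up to 0.0669), and the Neu1 call in 10 of 15 omissions (adjusted p up to 0.137). In high-fat over control livers 0 of the 31 passed. Under an unadjusted p of 0.05 there were 5, 1 higher and 4 lower, or 16.1% beside 5.79% of all features. Of 33 further autophagy genes 13 were on the array and 0 passed in any comparison; 2, 1 and 3 were under an unadjusted p of 0.05 in fasted over control, high-fat over control and fasted over high-fat livers. These are 15.4%, 7.69% and 23.1%, beside 19.7%, 5.79% and 16.8% of all features. Of 84 further traffic genes 26 were on the array, and 1 passed in 1 comparison: the SNARE gene Vti1b fell in fasted over control livers (-0.30 ± 0.07, adjusted p = 0.00763). This is 3.85% beside 7.93% of all features. Under an unadjusted p of 0.05 there were 9 (4 higher, 5 lower), 0 and 4 of the 26 in the same order of comparisons. These are 34.6%, 0% and 15.4%, beside 19.7%, 5.79% and 16.8% of all features. Ctsl itself was at 0.77 ± 0.13 in fasted over control livers (adjusted p = 0.000876) and 0.82 ± 0.12 in fasted over high-fat livers (adjusted p = 0.000421).

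The 2 arrays of a swap often did not read alike. Turned the same way, they correlated below 0 in 10 of 14 swaps (r from -0.365 to 0.508). With the average dye effect taken out, r was still below 0 in 6 of 14 (from -0.43 to 0.371). In the fasted over control swaps it was then 0.371 in 11/4, -0.159 in 15/2, 0.318 in 13/5 and -0.0977 in 14/3. The cause of the remaining disagreement was not tested. A dye effect passed limma's threshold in 21 of the 94 genes (22.3%), beside 2366 of all features (20.7%). In Copz1 the first arrays of the fasted over control swaps read -0.28, -0.28, -0.38 and -0.11, and the second arrays -1.08, -0.91, -1.08 and -0.94. All 8 were below 0, but the size differed, and the first arrays alone gave -0.19 (adjusted p = 0.0829). Sec61g, Gabarapl1, Arf5 and Lamp1 likewise had the same sign in both arrays of 4 of 4 fasted over control swaps, against 3 of 4 for Ctss and Ap4m1 and 1 of 4 for Arf4. The swap mean cancels a dye effect that is equal on both arrays, and a dye effect that differs between swaps was not removed.

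**Figure D4:**
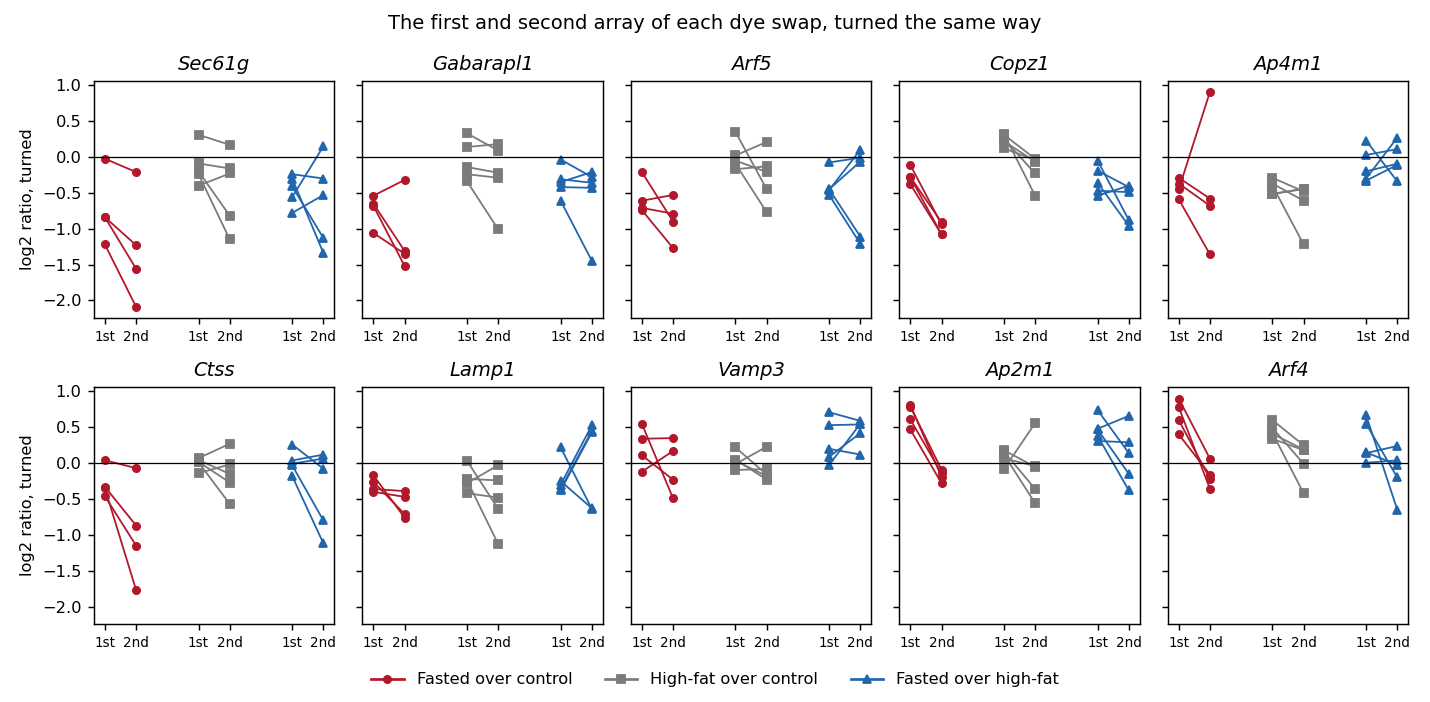
Log2 ratios on the first and second array of each swap (joined points), turned the same way, for the 10 genes that passed in at least 1 comparison. Red circles are fasted over control, grey squares high-fat over control and blue triangles fasted over high-fat swaps; Arf4 and Ap2m1 changed sign between arrays in 3 and 4 of the 4 fasted over control swaps.

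The 14 calls differed in how far they rested on single mice. With each of the 15 mice left out in turn, 6 calls passed every time: Copz1, Sec61g, Gabarapl1, Arf5 and Lamp1 in fasted over control livers and Copz1 in fasted over high-fat livers. The other 8 were lost in 3 to 13 omissions. In a fit of the direct pairs alone, 0 of the 94 genes passed in fasted over control livers, the nearest of the 8 being Gabarapl1 (-0.93, adjusted p = 0.0727), where 114 of all features still passed. In fasted over high-fat livers 1 passed in such a fit.

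**Figure D5:**
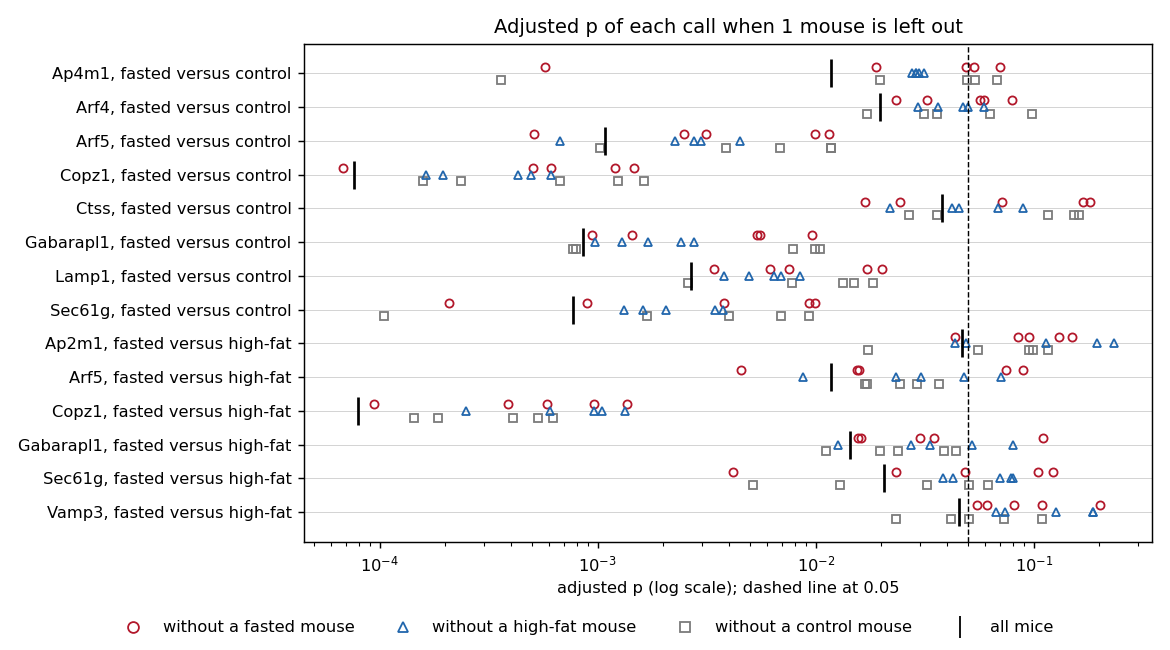
Adjusted p (x axis, log scale) of each of the 14 calls (y axis) with all mice (black bars) and with 1 fasted, high-fat or control mouse left out (symbols). Points right of the dashed line at 0.05 are omissions in which the call was lost: 0 for 6 calls and 3 to 13 of 15 for the others.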

How the data were processed

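Liver RNA of 15 mice was measured on 28 two-colour arrays. The deposited table holds the authors' log ratio per spot and array, taken as log2. The log base, background correction and normalization are not stated there or in the labels. Per the submitters' processing notes limma was used, for an unstated step. Taken literally, the channel labels leave the dyes of a swap unexchanged. Exchanged dyes were assumed, as the design text says: turned swap means differed between the 3 kinds of pair at 248 features, unturned means at 0 (limma F-test, adjusted). This bears on the relative sign of arrays only.

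Of 16416 spots 9758 named 4799 genes, and spots of a gene were averaged. All 94 genes had 2 spots and matched RefSeq. Turned arrays of a swap correlated with r from -0.365 to 0.508, below 0 in 10 of 14. The 2 arrays were averaged, and the 14 pairs fitted together by generalised least squares (limma 3.58.1, R 4.3.3; 12 residual and 4.51 prior degrees of freedom), with a variance share of 0.181 for shared mice. No filter was applied.

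Genes, lists and tests were chosen with earlier results of these data known. Named genes are those that passed, the 5 of smallest p per comparison, the largest per symbol stem and up to 5 that passed per list and comparison. Cope, Copz2, Lamp2, Gabarap, Ctsl, the marker genes and genes named for a promoter motif fall outside this rule. Alternatives were array centring and scaling, direct pairs, single arrays, variance shares of 0 and 0.9, single spots and omission of each mouse. Omission of the 2 swaps named below was chosen after seeing the data. Protein sequences were not used here.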

Additional observations from a re-analysis of the deposited data

Results flagged for a closer look

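Gap tests were run over the direct pairs of 40 named genes in 3 comparisons, 120 in all, and 4 singled out a pair, while chance flags about 1 in 20. Ap4m1 read -0.81 in the pair of high-fat 9 over control 2, and the other 4 high-fat over control pairs lay between -0.49 and -0.38. The gap to the nearest pair was 0.757 of the whole range (n = 5). The Kupffer cell marker Cd5l read -0.53 in the same pair, beside -0.23 to -0.16 in the other 4. C1qa, a marker of the same list, read -0.51 in fasted 11 over high-fat 9, beside -0.07 to 0.04. Ctsl read 1.37 in fasted 15 over high-fat 10, beside 0.55 to 0.74.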

How the results depend on the processing

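Every fit kept the mouse pairs of the arrays, and the fit of direct pairs alone used only the pairs of its own comparison. In fasted over control livers, where 1 gene of the 94 was higher and 7 lower, those higher numbered 4 with arrays scaled, 0 with direct pairs alone, 19 with first arrays alone, 2 with second arrays alone, 2 and 0 with variance shares of 0 and 0.9, 0 with first spots, 4 without the swap of fasted 15 and control 2, and 2 without that of fasted 14 and high-fat 7. Those lower numbered 0 with direct pairs and 2 with a share of 0.9. Omitting a mouse gave 0 to 2 higher and 5 to 10 lower. In high-fat over control livers, where 0 passed, 4 were higher and 3 lower with first arrays, 2 higher with second arrays, and lower were 1 with arrays centred, 2 with arrays scaled, 2 with a share of 0, and 1 without the swap of fasted 15 and control 2. Omissions gave 0 higher and 0 to 1 lower.

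In fasted over high-fat livers, with 2 higher and 4 lower, the higher numbered 0 with arrays centred, 4 scaled, 0 with direct pairs, 6 with first arrays, 1 with second arrays, 0 with a share of 0.9, 1 with first spots, 0 with second spots and 1 without the swap of fasted 14 and high-fat 7. The lower numbered 7 with arrays scaled, and 1 each with direct pairs, second arrays and a share of 0.9. Omissions gave 0 to 2 higher and 1 to 6 lower. Over all features, the 909 called in fasted over control livers became 114 with direct pairs, 3628 with first arrays and 165 with a share of 0.9. The 40 of high-fat over control became 88 scaled, 22 with direct pairs, 645 with first arrays, 93 with second arrays, 9 with a share of 0.9, 62 without the swap of fasted 15 and control 2, 24 without that of fasted 14 and high-fat 7, and 14 to 75 in omissions. The 625 of fasted over high-fat became 156, 1090, 160 and 115 with direct pairs, first arrays, second arrays and a share of 0.9, and 361 to 850 in omissions (515 to 1002 for fasted over control).

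The 40 named genes were followed under each alternative. A change of sign was counted only where the value passed in the main or the alternative fit, and other changes of sign were not counted. By this rule 3 turned round, all in fasted over control livers. Vamp4, at 0.11, read -0.48 with first arrays alone (adjusted p = 0.00307). Arf4, at 0.28, read -0.13 with second arrays alone (adjusted p = 0.604), and Naglu, at -0.32, read 0.0047 with first arrays alone (adjusted p = 0.974). Single arrays leave the dye effect in, and direct pairs use fewer samples; the cause of the other shifts was not tested. Signal over background is unknown, so limits set by dim spots cannot be given.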
